A study of Mus musculus with 13 samples.

Results

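Dntt, Ly6d, Rag1 and Rag2 are genes that a common lymphoid progenitor (CLP) switches on as it is primed for the lymphoid lineages. They were taken by their symbols from both deposited expression tables, and all 4 were found among the 24972 genes listed. They were followed over 13 libraries of RNA from CLPs sorted from the bone marrow of adult C57BL/6 mice, 6 to 12 weeks old, with 5 WT, 5 Notch1+/- and 3 Notch1+/ΔTAD libraries. Notch1+/- mice have 1 null allele of the receptor gene Notch1, and Notch1+/ΔTAD mice have 1 allele without the transactivation domain, whose product competes with normal Notch1 for its DNA-bound partner RBPj. In both mutants the altered allele is carried by every cell of the mouse, niche cells included, and no agent was given to any group. The sort kept live cells without lineage markers that had low Sca1 and c-Kit and stained for CD127, the IL-7 receptor encoded by Il7r, and for CD135, encoded by Flt3. None of the 4 gene products was part of the sort.

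Lymphocytes build antigen receptors by cutting and rejoining V, D and J gene segments. RAG1 and RAG2 form the recombinase that makes the cuts, and terminal deoxynucleotidyl transferase, the product of Dntt, adds bases that no template encodes at the joints. Ly6d encodes a small membrane-anchored surface protein, and its appearance on CLPs marks cells biased toward the B lineage. Notch1 signaling in lymphoid progenitors is known for directing T cell fate at the expense of B cell fate, which is the background for comparing these genes between the genotypes.

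Dntt lies on the plus strand of chromosome 19 (GRCm38, 41029275 to 41059525, 12 exons in its longest transcript), and Ly6d lies on the minus strand of chromosome 15 (74762056 to 74763620, 3 exons). Rag1 (chromosome 2, 101638282 to 101649501, minus strand, 2 exons) and Rag2 (101624718 to 101632529, plus strand, 3 exons) point toward each other with 5753 bases between them. Both lie inside B230118H07Rik, a minus-strand gene from 101560781 to 101649532, whose exons share 80 bases with those of Rag1 and 208 bases with those of Rag2. The libraries keep strand, but whether strand was used when reads were assigned is not given in the sources used here. Rag2 and B230118H07Rik therefore cannot be told apart with certainty. The 80 bases shared with Rag1 lie on the same strand, so strand could not separate Rag1 from B230118H07Rik there.

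RefSeq start regions of GRCm38.p6, 250 bases before and 50 after the annotated start, were matched for 3 of the 4 genes. They are shown so that the start of the abundant Dntt can be read beside those of the linked and much scarcer Rag genes. Capitals mark E-boxes (CANNTG, the core to which E2A proteins, central factors of lymphoid priming, are known to bind) and matches to CCAAT or its reverse complement.
Dntt, chr19:41029025-41029324, plus strand: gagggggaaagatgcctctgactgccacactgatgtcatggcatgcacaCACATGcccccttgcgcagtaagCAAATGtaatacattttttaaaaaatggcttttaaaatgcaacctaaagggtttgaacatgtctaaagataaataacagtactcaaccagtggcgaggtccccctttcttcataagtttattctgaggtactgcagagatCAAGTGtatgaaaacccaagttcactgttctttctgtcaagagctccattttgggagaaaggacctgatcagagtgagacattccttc
Rag1, chr2:101649483-101649782, minus strand: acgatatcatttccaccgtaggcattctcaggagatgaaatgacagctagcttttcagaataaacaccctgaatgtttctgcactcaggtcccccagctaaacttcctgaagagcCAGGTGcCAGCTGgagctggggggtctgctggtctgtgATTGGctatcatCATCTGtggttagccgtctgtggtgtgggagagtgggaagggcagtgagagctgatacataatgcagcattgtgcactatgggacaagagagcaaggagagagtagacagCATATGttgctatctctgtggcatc
Rag2, chr2:101624462-101624761, plus strand: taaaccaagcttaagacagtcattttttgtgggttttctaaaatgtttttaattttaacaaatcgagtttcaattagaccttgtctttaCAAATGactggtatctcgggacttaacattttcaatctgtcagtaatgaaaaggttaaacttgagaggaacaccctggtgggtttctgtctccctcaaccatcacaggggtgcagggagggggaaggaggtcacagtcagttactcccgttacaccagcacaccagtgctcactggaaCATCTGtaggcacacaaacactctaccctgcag

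The Dntt window holds 3 E-boxes, which start at -201, -178 and -38 from the RefSeq start, the Rag1 window holds 4 (-135, -128, -85 and 26) and the Rag2 window 2 (-161 and 18). An E-box is common, since 72.3% of 32851 RefSeq promoters of the same length have at least 1. CCAAT, read on both strands, was matched only in Rag1 among the 3 (reverse strand, -97) and is in 37.4% of all promoters. GGAA, the core of ETS family sites, is present 2 times for Dntt and 3 times each for Rag1 and Rag2, but also in 96.0% of all promoters. TGGGAA, the Ikaros core, of which GGAA is a part, was matched in Rag1 alone (-52) and is in 25.6% of all promoters. TATAAA and the FOXO motif GTAAACA were matched in none of the 3 windows and are in 13.6% and 3.65% of all promoters. These matches describe the letters and were not tested as binding sites.

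The values are transcript abundances scaled by length (TPM), which sum to 1000000 in each library, and read depth is unknown. Between 3179 and 3855 genes reached 1 TPM in a WT library and between 2818 and 4736 in a Notch1+/- library. In Notch1+/ΔTAD libraries 3984 to 4663 genes did so, more than in any WT library. The part of this difference in the fold changes was not tested. Flt3 was present in all 13 libraries (5.21 to 283 TPM) and Il7r in 12 (up to 184 TPM), whereas Kit was at 0 in 5 libraries and Ly6a, which encodes Sca1, in 8. Of 7 T cell genes, Cd3e, Cd3g and Cd8a were listed at 0 in all 13 libraries and Cd3d in 12, whereas Lck, a kinase of T cell receptor signaling, reached 1 TPM in 10 (up to 560 TPM) and Cd4 in 2 (up to 187 TPM). The log2 fold change of Lck was 3.27 (SE 1.87), 1.08 (SE 2.18) and 2.19 (SE 2.21) in Notch1+/ΔTAD against WT, Notch1+/- against WT and Notch1+/ΔTAD against Notch1+/-, with adjusted p-values of 0.952 or more in limma. Of 4 NK cell genes, Nkg7 was at 0 in 8 libraries and reached 1122 TPM, and Klrd1 was at 0 in 9 and reached 137 TPM. Of 4 genes known for plasmacytoid dendritic cells, Irf8 (median 743 TPM), Bst2 (483 TPM) and Siglech (70.8 TPM) were present in all 13 libraries and Ccr9 was at 0 in 5. Of 7 erythroid genes, 6 were listed at 0 in all 13. Notch1 RNA was at 0 to 25.7 TPM in WT, 9.27 to 78.5 TPM in Notch1+/- and 0.893 to 35.0 TPM in Notch1+/ΔTAD libraries, so its level did not check the genotype labels.

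By level per unit length, Dntt was above Ly6d, and Ly6d above both Rag genes, in 13 of 13 libraries, also after the TPM values were multiplied by transcript length, which gives the scale of a count of 3′ ends. Median levels were 4112 TPM for Dntt, 1418 for Ly6d, 7.11 for Rag1 and 0 for Rag2. Dntt ranked between place 12 and place 81 of all genes in a library, and Ly6d between 68 and 683. Rag1 was above Rag2 in 10 of 13 libraries, and the exceptions were WT library 11, Notch1+/- library 13 and Notch1+/ΔTAD library 14, so the order of the Rag genes was not beyond the spread of the libraries.

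**Figure D1:**
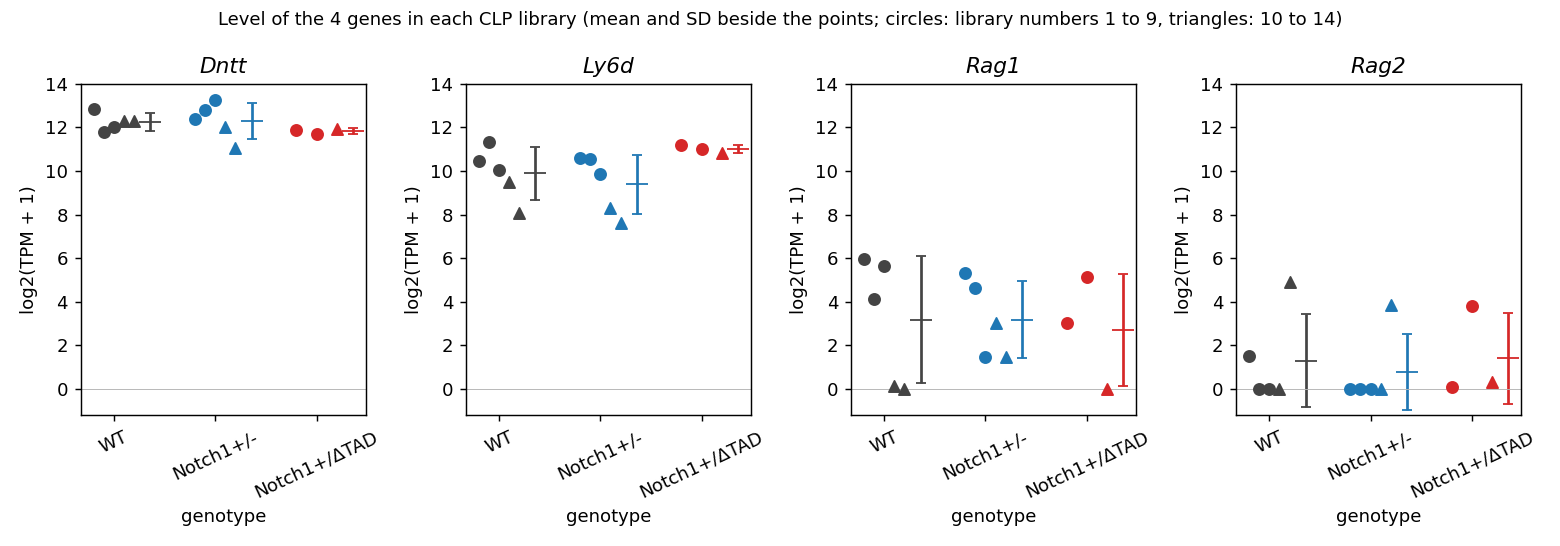
Level of Dntt, Ly6d, Rag1 and Rag2 as log2(TPM + 1) (vertical axis) in each library by genotype (horizontal axis). Points are libraries, with circles for library numbers 1 to 9 and triangles for 10 to 14, and the bar beside each set gives the mean and SD. Dntt and Ly6d are present in all 13 libraries, the 3 Notch1+/ΔTAD libraries lie close together for both, and the Rag genes reach 0 in WT and in at least 1 other library each.

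Dntt, the polymerase of N additions, was among the most abundant RNAs in every CLP library. In WT libraries 1, 2, 3, 10 and 11 it was at 7459, 3482, 4083, 5007 and 5060 TPM (mean 5018 ± 1516, SD, n = 5). The Notch1+/- libraries 4, 5, 6, 12 and 13 had 5238, 7107, 9616, 4112 and 2095 TPM (5634 ± 2873, n = 5), and Dntt in the Notch1+/ΔTAD libraries 7, 9 and 14 was at 3705, 3267 and 3902 TPM (3625 ± 325, n = 3). Notch1+/ΔTAD libraries 7 and 14 lay in the low part of the WT range and library 9 just below it, whereas the Notch1+/- values spread over the widest range, from the lowest to the highest of all 13. Because this is bulk RNA, fewer primed cells and less RNA per cell cannot be told apart for Dntt or for any other gene here.

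The log2 fold change of Dntt was -0.42 for Notch1+/ΔTAD against WT (limma on log2(TPM + 1), SE 0.27, 95% interval -1.0 to 0.15, adjusted p = 0.952). It was 0.04 for Notch1+/- against WT (SE 0.36, interval -0.73 to 0.81, adjusted p = 0.993) and -0.46 for Notch1+/ΔTAD against Notch1+/- (SE 0.38, interval -1.26 to 0.33, adjusted p = 0.997). No comparison of Dntt passed the threshold, which was a Benjamini-Hochberg adjusted p, taken over all genes tested, under 0.05. By 2-sided exact permutation tests the p-values of Dntt were 0.143, 0.921 and 0.393 in the same order. Within a genotype, the SD of Dntt on the log2 scale was 0.593, against a median of 0.439 over 57 genes within 2-fold of its mean level.

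Ly6d, the surface marker of B-biased progenitors, was present in every library but varied more than Dntt. WT libraries 1, 2, 3, 10 and 11 had 1418, 2559, 1034, 727 and 271 TPM (1202 ± 867, SD, n = 5). Notch1+/- libraries 4, 5, 6, 12 and 13 had 1538, 1502, 933, 309 and 194 TPM (895 ± 636, n = 5), and Notch1+/ΔTAD libraries 7, 9 and 14 had 2302, 2065 and 1801 TPM (2056 ± 250.5, n = 3). Every Notch1+/ΔTAD library lay above every Notch1+/- library, and above every WT library other than library 2, which had the highest level of all 13.

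Against Notch1+/-, Ly6d in Notch1+/ΔTAD CLPs was higher by 1.62 on the log2(TPM + 1) scale, a 3.07-fold difference (limma, SE 0.74, 95% interval 0.08 to 3.16). The adjusted p was 0.932, so the difference did not pass, and Ly6d ranked 265 of 6281 genes by p. A 2-sided exact permutation test of the same libraries gave p = 0.0357, and 0.429 after adjustment over the 12 such tests of the 4 genes. As the test doubles the smaller 1-sided p, 0.0357 is the least value that 56 arrangements allow. In this comparison 1 of the 4 genes had an unadjusted p under 0.05, beside 5.33% of all genes tested, and 1 of the 4 had every Notch1+/ΔTAD library above every Notch1+/- library, beside 2.44% of all genes. Ly6d no longer had an unadjusted p under 0.05 with eBayes without a trend, over all genes above 0, or when any of libraries 7, 9, 12, 13 or 14 was left out (log2 fold changes of 1.18 to 1.71), and without library 13 Dntt was instead the 1 gene that had it (-0.78). None of the 4 passed the adjusted threshold, nor did any other gene (0%).

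Against WT, the log2 fold change of Ly6d was 1.12 in Notch1+/ΔTAD CLPs (2.17-fold, SE 0.60, interval -0.18 to 2.41, adjusted p = 0.952 with limma), and 12 of 15 pairs of libraries had the Notch1+/ΔTAD value above the WT value. In Notch1+/- CLPs it was -0.50 (SE 0.72, interval -2.03 to 1.02, adjusted p = 0.993 with limma), with 11 of 25 pairs above WT. Exact permutation tests, 2-sided, gave p = 0.143 and p = 0.556 for these comparisons of Ly6d. The comparisons share libraries, so their values are not independent. The median gene was itself higher in Notch1+/ΔTAD libraries, by 0.47 against WT and 0.35 against Notch1+/-, and by 0.06 in Notch1+/- against WT. Relative to that median, the log2 difference of Ly6d was 0.65, 1.27 and -0.56 and that of Dntt was -0.90, -0.81 and -0.02, in the same order.

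**Figure D2:**
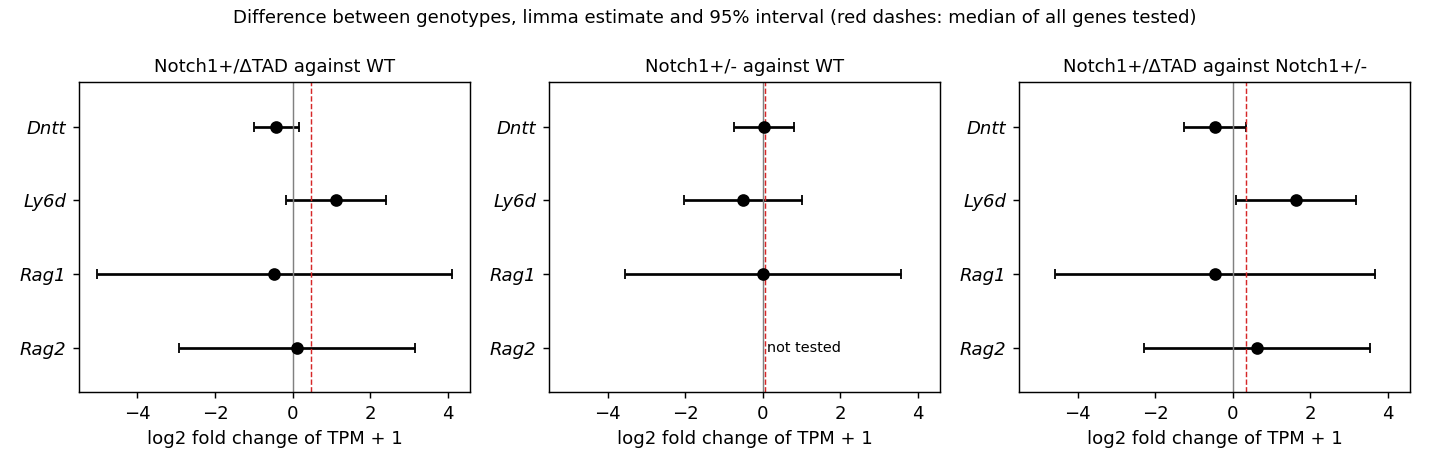
Log2 fold change of TPM + 1 between genotypes (horizontal axis) for the 4 genes (vertical axis), as the limma estimate with its 95% interval. Grey lines mark 0 and red dashes the median of all genes tested, at 0.47, 0.06 and 0.35 from left to right. Every interval spans 0 other than that of Ly6d in Notch1+/ΔTAD against Notch1+/-, whose lower bound is 0.08, and Rag2 was too rarely present to be tested in Notch1+/- against WT.

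In WT and Notch1+/-, Ly6d was lower in the libraries with later numbers, as the sample titles give them. Numbers 1 to 9 and 10 to 14 each hold all 3 genotypes, and the labels describe 1 batch of library preparation, so the ranges are numbers and no known batch. In WT, libraries 10 and 11 had 727 and 271 TPM against 1034 to 2559 in libraries 1 to 3. In Notch1+/-, libraries 12 and 13 had 309 and 194 TPM against 933 to 1538 in libraries 4 to 6. Notch1+/ΔTAD library 14, at 1801 TPM, was by contrast close to libraries 7 and 9. The log2 difference between the ranges was -1.80 in WT, -2.39 in Notch1+/- and -0.28 in Notch1+/ΔTAD, where the second range is 1 library.

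Within numbers 1 to 9, Ly6d in Notch1+/ΔTAD was above Notch1+/- by 0.75 and above WT by 0.49 on the log2 scale. Within 10 to 14 these differences were 2.87 and 2.02, and each rests on 1 Notch1+/ΔTAD library, so the size of the difference depended on the range while its direction did not. With a term for the range in the limma model, Notch1+/ΔTAD against Notch1+/- gave 1.51 (SE 0.59, adjusted p = 0.905, within a span of 0.828 to 1.00 over all alternatives), and Notch1+/ΔTAD against WT gave 1.03 (SE 0.51).

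RNA of B lineage genes also tended to be lower in the later numbers. The summed level of 8 markers (Cd79a, Cd79b, Vpreb1, Vpreb3, Igll1, Ebf1, Pax5 and Blnk) was 406 to 2043 TPM in libraries 1 to 9 and 66.4 to 575 TPM in libraries 10 to 14. By genotype it was 159 to 1866 TPM in WT, 66.4 to 2043 in Notch1+/- and 116 to 1827 in Notch1+/ΔTAD libraries. Blnk, an adaptor of B cell receptor signaling, was present in all 13 libraries (1.65 to 969 TPM), and Vpreb1, which encodes part of the surrogate light chain, reached 1 TPM in 10 (up to 1029 TPM). Igll1, encoding its other part, reached 1 TPM in 6, whereas Cd79a and Cd79b, the signaling chains of the B cell receptor, were at 0 in 7 and 11. In Notch1+/ΔTAD CLPs, 5 of the 7 B lineage genes tested had a log2 fold change above 0 against WT (median 0.54) and 5 of 7 against Notch1+/- (median 1.07), and none passed. Of all genes tested, 61.8% and 58.9% were above 0 in these comparisons, with medians of 0.47 and 0.35. Vpreb1 gave 2.56 (SE 2.09) and 3.73 (SE 2.32) in these comparisons, and Igll1 gave 3.91 (SE 2.34) and 1.60 (SE 2.52). The B lineage genes below 0 against WT were Ebf1 (-1.24, SE 1.86) and Blnk (-0.52, SE 1.625). Against Notch1+/- they were Blnk (-0.93, SE 1.47) and Pax5 (-0.86, SE 2.08). All of these values had an adjusted p of 0.952 or more in limma. Library 14 had a B lineage sum of 116 TPM, the lowest after Notch1+/- library 12, and a high level of Ly6d, so the 2 measures parted there. The 4 plasmacytoid dendritic cell genes summed to 842 to 3070 TPM (median 1449.5) in libraries 1 to 9. In libraries 10 to 14 they summed to 678 to 1224 TPM (median 862.7). By genotype these sums were 842 to 2667 TPM in WT, 678 to 1740 in Notch1+/- and 811 to 3070 in Notch1+/ΔTAD libraries. Their medians were 1171, 929.5 and 1788 TPM. The part of B lineage or plasmacytoid dendritic cell RNA in the Ly6d difference was not tested.

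**Figure D3:**
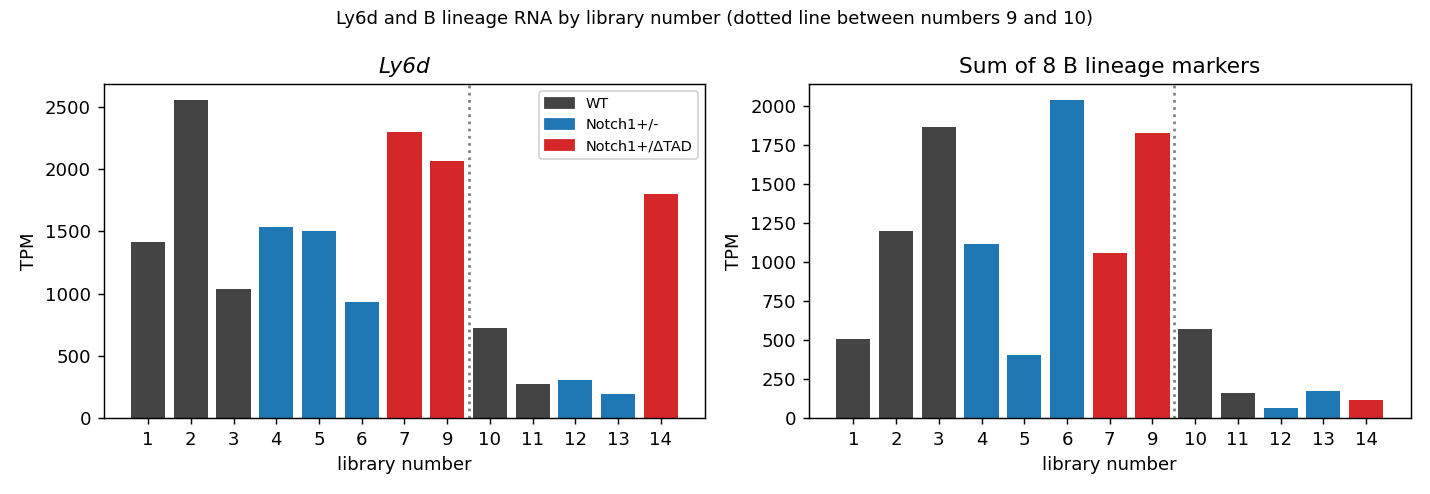
TPM (vertical axis) of Ly6d (left) and of the sum of 8 B lineage markers (right) in each library by its number (horizontal axis), with bars coloured by genotype and a dotted line between numbers 9 and 10. Among numbers 10 to 14, Ly6d is at 194 to 727 TPM in WT and Notch1+/- and at 1801 TPM in Notch1+/ΔTAD library 14, where the B lineage sum is 116 TPM.

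The balance of Dntt and Ly6d within a library does not depend on how libraries are scaled to each other. Dntt exceeded Ly6d by 1.58- to 2.17-fold in the 3 Notch1+/ΔTAD libraries (median 1.61), by 3.41- to 13.3-fold in the Notch1+/- libraries (median 10.3) and by 1.36- to 18.7-fold in the WT libraries (median 5.26). Thus 5 of 5 Notch1+/- and 4 of 5 WT libraries had a higher ratio than any Notch1+/ΔTAD library, with WT library 2 as the exception. By library number, the ratio was 1.36 to 5.26 in WT libraries 1 to 3, and 6.89 and 18.7 in 10 and 11. In Notch1+/- it was 3.41 to 10.3 in libraries 4 to 6, and 13.3 and 10.8 in 12 and 13. Notch1+/ΔTAD library 14 had 2.17. On the scale of TPM multiplied by transcript length the ratios were 4.53 to 6.20 in Notch1+/ΔTAD, 9.75 to 38.05 in Notch1+/- and 3.90 to 53.5 in WT libraries, with the same order of libraries. The ratio was computed after the levels of both genes were known and carries no test.

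Rag1, the catalytic subunit of the recombinase, was far scarcer and reached 1 TPM in 10 of 13 libraries. WT libraries 1, 2, 3, 10 and 11 had 61.1, 16.7, 49.4, 0.106 and 0 TPM. The Notch1+/- libraries 4, 5, 6, 12 and 13 had 39.6, 23.8, 1.78, 7.08 and 1.73 TPM, and the Notch1+/ΔTAD libraries 7, 9 and 14 had 7.11, 33.9 and 0 TPM. The 3 genotypes overlapped over most of their ranges, and the high values in each came from libraries 1 to 9 (1.78 to 61.1 TPM, against 0 to 7.08 TPM in libraries 10 to 14). Log2 fold changes were -0.47 for Notch1+/ΔTAD against WT (SE 2.13, interval -5.05 to 4.12), 0.00 for Notch1+/- against WT (SE 1.67, interval -3.56 to 3.56) and -0.47 for Notch1+/ΔTAD against Notch1+/- (SE 1.98, interval -4.59 to 3.65), each with an adjusted p of 0.996 or more in limma. These intervals span many-fold differences both ways, so at this spread a difference in Rag1 was not detectable.

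Rag2, the cofactor of RAG1, was listed at 0 in 7 of 13 libraries. WT libraries 1 and 11 had 1.89 and 29.1 TPM and libraries 2, 3 and 10 had 0. Among Notch1+/- libraries only library 13 was above 0, at 13.6 TPM, and Notch1+/ΔTAD libraries 7, 9 and 14 had 0.0635, 13.2 and 0.232 TPM. A high value thus came from 1 library in each genotype. Log2 fold changes were 0.12 for Notch1+/ΔTAD against WT (SE 1.42, interval -2.94 to 3.17) and 0.63 for Notch1+/ΔTAD against Notch1+/- (SE 1.40, interval -2.28 to 3.55), both with an adjusted p of 0.996 or more in limma. For Notch1+/- against WT, Rag2 failed the minimum of 1 TPM in 5 libraries, and the exact permutation test over the 10 libraries gave a 2-sided p of 0.722.

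The gene around Rag2, B230118H07Rik, was above 0 in 4 libraries, namely WT 2 (7.70 TPM) and 11 (41.9 TPM), Notch1+/- 13 (92.0 TPM) and Notch1+/ΔTAD 14 (29.3 TPM). It was therefore also present in 2 of the 3 libraries with Rag2 above 10 TPM, and at 0 in Notch1+/ΔTAD library 9, which had 13.2 TPM of Rag2. Of the other genes beside the Rag genes, Traf6 was at 0 in 7 libraries and reached 58.9 TPM, and Prr5l was at 0 in all 13. Both Rag genes reached 1 TPM together in 3 libraries (WT 1, Notch1+/- 13 and Notch1+/ΔTAD 9). Rag1 did so alone in 7 libraries, Rag2 alone in 1 and neither in 2.

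In the comparisons with WT, no member stood out from the table as a whole. For Notch1+/ΔTAD against WT, all 4 genes were tested among 4737, and none had an unadjusted p under 0.05 (5% of all genes did), an adjusted p under 0.05 (0% of all genes) or groups that did not overlap (3.12% of all genes). For Notch1+/- against WT, 3 of the 4 were tested among 3178 genes, and again none had an unadjusted p under 0.05 (5.35% of all genes), an adjusted p under 0.05 (0%) or groups without overlap (0.787%). With limma's eBayes without a trend, 15, 2 and 3 genes passed in the 3 comparisons, counting Notch1+/ΔTAD against Notch1+/- last, and none of them was one of the 4.

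The 4 genes were also compared with each other over the 13 libraries on the log2(TPM + 1) scale. The largest of the 6 pairwise correlations was that of Ly6d and Rag1 (Pearson r = 0.48, permutation p = 0.0960, adjusted over 6 pairs 0.288; Spearman rho = 0.40, permutation p = 0.179, adjusted 0.612). After centring on genotype means it was 0.62 (permutation p = 0.0306, adjusted 0.0917), and that of Ly6d and Rag2 was -0.65 (permutation p = 0.0250, adjusted 0.0917). The value for Ly6d and Rag1 was 0.25 without the 2 libraries farthest from the median of Ly6d and 0.09 within libraries 1 to 9, so the relation did not hold in these subsets. Ly6d and Rag2 gave r = -0.48 (permutation p = 0.0898, adjusted 0.288) and rho = -0.18, and the other 4 pairs lay between -0.36 and 0.20. Within libraries 1 to 9, Dntt and Ly6d gave r = -0.70 (n = 8, permutation p = 0.0598, adjusted 0.359), against 0.20 over all 13, and no value was computed within numbers 10 to 14, which hold 5 libraries.

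Genes whose level followed each member were sought among 1570 genes at 1 TPM or more in at least 10 libraries, by Spearman rho over the 13 libraries, as a description. For Rag1 the highest was Il7r (rho = 0.87), which encodes the receptor that the sort selected for and that carries the IL-7 signal on which lymphoid progenitors depend, followed by Saraf and Mcmbp (both 0.82). Il7r was at 179, 129, 184, 9.30 and 1.07 TPM in WT libraries 1, 2, 3, 10 and 11. It was at 110, 84.0, 0, 44.0 and 53.9 TPM in Notch1+/- libraries 4, 5, 6, 12 and 13, while Notch1+/ΔTAD libraries 7, 9 and 14 had 96.8, 122 and 11.4 TPM. The 6 libraries with Rag1 above 10 TPM thus all had at least 84.0 TPM of Il7r. Flt3, the other receptor of the gate, did not share the split, with a median of 116 TPM in libraries 1 to 9 and 144 TPM in 10 to 14.

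**Figure D4:**
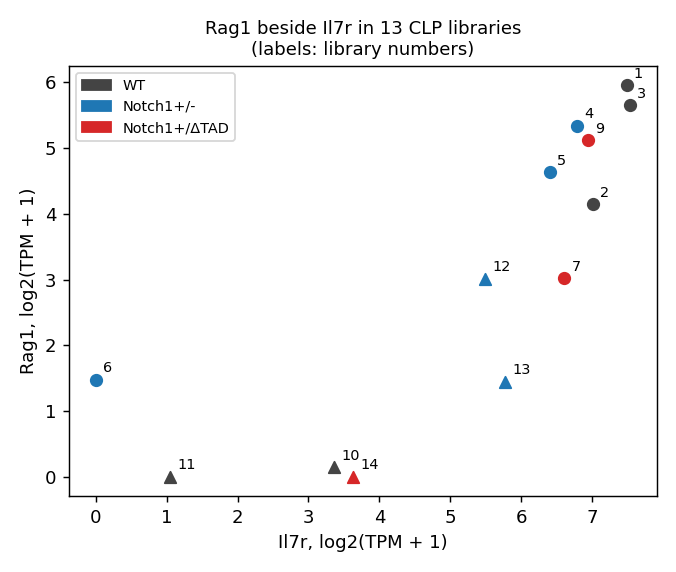
Rag1 (vertical axis) against Il7r (horizontal axis), both as log2(TPM + 1), with 1 point per library, coloured by genotype and labelled with the library number (circles for 1 to 9, triangles for 10 to 14). Libraries with Rag1 above 10 TPM lie at the right, at 84.0 TPM of Il7r or more, and library 6, with Il7r at 0, has 1.78 TPM of Rag1.

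For Ly6d the nearest genes were Srsf6, a splicing factor (rho = 0.85), Selplg, the selectin ligand PSGL-1 used in homing, and Tfrc, the transferrin receptor (both 0.77). For Dntt they were Arl6ip4 (0.79), Ankrd13a (0.78) and Ubxn1 (0.78). Rag2 reached 1 TPM in too few libraries for this search. The median rho over all 1570 genes was -0.04 for Dntt, 0.06 for Ly6d and 0.04 for Rag1, and all points share the depth and composition of their libraries. None of the 4 genes was among the 3 nearest of another, with Ly6d at place 203 for Rag1 and Dntt at place 1323 for Ly6d.

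The RNAs of proteins that act with RAG and TdT in V(D)J recombination were listed at very different levels. Of 13 partner genes, Hmgb1 (158 to 460 TPM) and Hmgb2 (30.6 to 97.6 TPM), which bend DNA in the RAG complex, were at 1 TPM or more in every library. Xrcc6, encoding Ku70, had a median of 118 TPM, whereas Xrcc5, encoding its partner Ku80, was listed at 0 in 12 of 13 libraries, so a value of 0 cannot be read as absence. Xrcc4, Nhej1 and Polm of the end-joining machinery were listed at 0 in all 13 libraries. Among other relatives of TdT in polymerase family X, Polb was above 0 in 4 libraries and Poll in 1. No partner gene passed the adjusted threshold in any comparison. Dclre1c, which encodes the hairpin opener Artemis, had the smallest p in Notch1+/ΔTAD against Notch1+/- (log2 fold change 3.59, SE 1.38, adjusted p = 0.932 in limma), with 46.5, 0 and 41.3 TPM in libraries 7, 9 and 14 and at most 0.257 TPM in Notch1+/-. It was also at 15.1 TPM in WT library 10, and was at 0 in 9 of 13 libraries and at 1 TPM or more in only 3. Dclre1c was the only 1 of 5 partner genes tested there with an unadjusted p under 0.05, beside 5.33% of all genes tested. The 5 had a median log2 fold change of 0.18 beside 0.35 for all genes.

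Of 17 transcription factors known for lymphoid priming or for control of the 4 genes, Bcl11a (120 to 546 TPM) and Ikzf1, encoding Ikaros (8.67 to 188 TPM), had the highest medians. Tcf3, which encodes E2A, had a median of 11.7 TPM, and Ebf1, the B lineage factor, one of 8.94 TPM. Of those tested, 11, 10 and 13 in Notch1+/ΔTAD against WT, Notch1+/- against WT and Notch1+/ΔTAD against Notch1+/-, none passed the adjusted threshold or had an unadjusted p under 0.05. Their median log2 fold changes were -0.10, 0.04 and -0.22, beside 0.47, 0.06 and 0.35 for all genes. The smallest p-values were those of Tcf3 (-1.54, SE 1.78), Ebf1 (-1.51, SE 1.49) and Ikzf1 (-1.33, SE 1.30), in the same order.

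Of 12 relatives of Ly6d in the Ly6 gene family, Ly6e was abundant in every library (873 to 2160 TPM) and 7 were listed at 0 in all 13. The log2 fold change of Ly6e was -0.07 in Notch1+/- against WT (SE 0.39, adjusted p = 0.993 in limma), and its median was 1557 TPM in libraries 1 to 9 and 1387 TPM in 10 to 14, so it lacked the split that Ly6d showed. Ly6c2, a marker of myeloid cells among others, was higher in Notch1+/ΔTAD than Notch1+/- by 4.52 (SE 1.95, adjusted p = 0.932 in limma). It was, however, at 0 in 9 of 13 libraries and reached 1 TPM in 3. Its levels were 0, 77.4 and 153 TPM in Notch1+/ΔTAD, 0 in every Notch1+/- library and up to 280 TPM in WT. The 8 myeloid markers summed to 436 to 2067 TPM in WT, 212 to 1257 in Notch1+/- and 272 to 1773 in Notch1+/ΔTAD libraries. Of the 7 tested between the mutants, S100a9 (log2 fold change 6.06, SE 2.26) and Lyz2 (3.48) had an unadjusted p under 0.05, beside 5.33% of all genes tested. Both had an adjusted p of 0.932 in limma. In this comparison 6 of the 7 had a log2 fold change above 0 (median 2.35), beside 58.9% of all genes (median 0.35). In Notch1+/ΔTAD against WT, 4 of 5 tested were above 0 (median 1.46), beside 61.8% of all genes (median 0.47). In Notch1+/- against WT, all 4 tested were below 0 (median -0.99), with S100a9 at -4.32 (SE 2.27, adjusted p = 0.921 in limma). None passed. Lyz2 was at 0 in 9 of 13 libraries and reached 1 TPM in 3. It was at 0, 61.1 and 90.9 TPM in Notch1+/ΔTAD, at most 5.90 TPM in Notch1+/- and 0 in WT. Elane was at 0 in 12 of 13 libraries, and Mpo was at 1 TPM or more in 9 (median 102 TPM). S100a9 was so in 9 (up to 1001 TPM), S100a8 in 7 (up to 1803 TPM), and Csf1r was above 0 in all 13. The part of myeloid RNA in the Ly6d difference was not tested.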

How the data were processed

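RNA of sorted CLPs, 1 library per mouse, was prepared with a strand-specific 3′ kit. The authors trimmed reads (FASTQ Toolkit 2.2.0 in the submitters' processing notes), aligned them with STAR (RNA-Seq Alignment 2.0.0) to mm10 and deposited TPM in 2 tables, 1 per mutant beside identical WT columns. The tool and annotation behind the TPM are not given in the sources used here. Counts were not used, so precision comes only from the spread between libraries. Division by length can distort levels between genes in 3′ data.

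Deposited TPM were taken to log2(TPM + 1) and fitted over all genes with limma 3.58.1 in R 4.3.3 (eBayes with trend, Benjamini-Hochberg adjustment, tried on simulated data), for genes that reached 1 TPM in a number of libraries equal to the smaller group. The mutants were compared in a model of all 13 libraries. Permutation tests used scipy 1.17.1, exact or with 100000 resamples. Coordinates come from GENCODE M21 (GRCm38, the build mm10 names).

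The members and lists were chosen with earlier results of these data known. Named genes are the 4 members, the 3 genes nearest to each, and from each list the 2 highest by median and the smallest p in each comparison, as none passed (genes tied at a median of 0 are named in part). Siglech, Ccr9, Cd4, Cd79a, Cd79b, Lyz2, S100a8, Csf1r, Elane, Hmgb2, Xrcc5, Polb, Poll, Tcf3, genes at 0 and the overlapping gene are named outside this rule. A B lineage marker is not reported here and was left out of the sums. Other settings tried were pseudocounts, filters, scalings, eBayes without trend, array weights, a library number term and leaving out each library.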

Additional observations from a re-analysis of the deposited data

Results flagged for a closer look

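Rag2 in WT library 11 (29.1 TPM) and in Notch1+/- library 13 (13.6 TPM) lay apart from the rest of their groups, by a gap of more than 0.71 of the group's range, Dixon's critical value for 5 samples. The other WT libraries were at 1.89 TPM or 0, and the other Notch1+/- libraries were at 0. Of 8 groups of 5 libraries looked at for the 4 genes, 2 stood apart in this way. Chance gives about 1 in 20 groups of normally distributed values, but that rate does not apply here. Rag2 was at 0 in 4 of 5 Notch1+/- and 3 of 5 WT libraries, and any value above 0 in the remaining Notch1+/- library would have passed. In the same libraries, B230118H07Rik, whose exons overlap those of Rag2 on the other strand, was at 41.9 and 92.0 TPM, and Rag1 was at 0 and 1.73 TPM. The part of the overlapping gene in these Rag2 values was not tested.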

How the results depend on the processing

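No paired analysis was possible because the library numbers are not shared between genotypes. None of the 4 genes passed the adjusted threshold under any alternative run. The count of all genes that passed was 0 under every alternative other than eBayes without trend, which gave 15, 2 and 3 genes for Notch1+/ΔTAD against WT, Notch1+/- against WT and Notch1+/ΔTAD against Notch1+/-. The direction of Ly6d held under every alternative in all 3 comparisons (0.67 to 1.48, -0.95 to -0.06 and 1.18 to 1.92), as did that of Dntt in the comparisons with Notch1+/ΔTAD (-0.54 to -0.27 and -0.78 to -0.23). These values do not include a split by library number. Within numbers 1 to 9, Dntt in Notch1+/ΔTAD minus Notch1+/- was -1.03 on the log2 scale, and within 10 to 14 it was 0.41, so its direction changed. Against WT, Dntt gave -0.44 and -0.37. The values for 10 to 14 rest on 1 Notch1+/ΔTAD library. For the other genes and comparisons the sign was not stable under the alternatives. Rag2 for Notch1+/ΔTAD against WT was -0.025 with a pseudocount of 10, -0.38 with quantile normalization and -0.12 with array weights. For Notch1+/- against WT, Rag1 was -0.31, -0.20 and -0.25 under the same 3 settings, and Dntt was -0.073 with quantile normalization and -0.26 with array weights. Leaving out 1 library at a time gave ranges of -1.67 to 0.89 for Rag1 and -1.09 to 0.78 for Rag2 in Notch1+/ΔTAD against WT, -0.20 to 0.35 for Dntt and -0.79 to 0.70 for Rag1 in Notch1+/- against WT, and -1.67 to 0.89 for Rag1 and -0.58 to 1.41 for Rag2 in Notch1+/ΔTAD against Notch1+/-. Without Notch1+/ΔTAD library 9 the Rag2 values were -1.09 and -0.58, and without library 14 the Rag1 values were 0.89 and 0.89. Rag2 in Notch1+/- against WT could be fitted only over all genes above 0 (-0.52, adjusted p = 0.917 in limma). Without the 2 libraries farthest from the median, r was -0.19 for Dntt and Ly6d, 0.29 for Ly6d and Rag2 and 0.025 for Rag1 and Rag2. Within libraries 1 to 9, r was -0.70 for Dntt and Ly6d, -0.29 for Dntt and Rag1, 0.26 for Ly6d and Rag2 and 0.34 for Rag1 and Rag2. The cause of these reversals was not tested. Quantile normalization brought the median gene to -0.03, -0.03 and -0.02 in the 3 comparisons. Of the alternative values for single genes, 184 kept their sign and 26 changed it.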
